A study of Mus musculus with 2 samples.

Results

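The genes described here are receptors and ligands of T cell costimulation from the TNF-receptor and CD28 families, measured in immune cells of mouse liver metastases. The members are Cd40 with its ligand Cd40lg, Tnfrsf4 (OX40) with its ligand Tnfsf4 (OX40L), Tnfrsf9 (4-1BB) with its ligand Tnfsf9 (4-1BBL), Tnfrsf18 (GITR), and Icos with its ligand Icosl. They were chosen by gene symbol, and all 9 were found among the 56941 features of the count tables.

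C57BL/6 mice aged 6 to 8 weeks received an intrasplenic injection of MC38-LM3b cells, a GFP- and luciferase-marked derivative of the MC38 colorectal cancer line with a high capacity for liver metastasis. A scramble hairpin was expressed in the injected cells of the first group (Ctrl), and hairpin #2 against SLAMF3, the product of the gene Ly9, in those of the second (KD). The hairpin was in the injected tumor cells and not in the immune cells of the host. After 2 weeks, lesions of 3 mice were pooled in each group, CD45+ cells were taken by positive selection, and droplet-based 3' single-cell RNA sequencing was performed.

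A naive T cell needs a signal from a costimulatory receptor as well as from its antigen receptor. CD28 and ICOS give this signal through ligands on antigen-presenting cells, and the TNF-receptor family members OX40, 4-1BB and GITR appear after activation and sustain survival, division and effector function through TRAF adaptors and NF-kappaB. In the CD40 pair the direction is turned around: activated helper T cells carry CD40L and signal to CD40 on macrophages, dendritic cells and B cells. In tumors, regulatory T cells are known for high levels of OX40, 4-1BB, GITR and ICOS.

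With 1 library per group there was no replicate error and no test was made. All intervals are 95% intervals that cover counting error only. Ctrl held 10416 and KD 10943 cell barcodes, with 67207234 and 64444715 UMIs (tags that mark each captured RNA molecule once), and 27 barcode sequences occurred in both libraries. After filtering, 9814 Ctrl and 10185 KD cells remained, with medians of 5411.5 and 4989 UMIs. Levels are given as CPM, the UMIs of a gene scaled to a common total of UMIs in each class of cells. They are compared between classes for 1 gene and not between genes. Ly9 was at 21.0 CPM in Ctrl and 18.8 CPM in KD over all filtered cells, which is a level of the sorted immune cells and does not check the knockdown in the injected cells. Granulocyte transcripts were read in other classes and more so in KD. The summed level of 12 granulocyte markers, none of them at 0, was 86.0 CPM in Ctrl and 253 CPM in KD in T cells, and 299 and 981 CPM in macrophages, and S100a9 was read in 10.3% and 42.9% of T cells. T cell transcripts were read in other classes as well. The summed level of 8 T cell markers was 36.7 CPM in Ctrl and 14.8 CPM in KD in macrophages, and 339 and 202 CPM in B cells. In conventional dendritic cells it was 104 and 126 CPM. The part of these differences in the results below was not tested.

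Cells were clustered with the members left out of the genes used, and no marker list that named a class held a member. Cd40lg was nevertheless among the 10 leading genes of the CD4+ T-like cluster, and Tnfrsf4 among those of the Treg-like cluster. T cells numbered 3079 in Ctrl and 1864 in KD, or 31.4% and 18.3% of the filtered cells. Cd3e was read in 87.4% and 77.4% of them. CD8+ T-like cells were 81.9% of this class in Ctrl against 52.7% in KD, and are the sum of exhausted-like, effector-like and cycling-like clusters. CD4+ T-like cells made up 4.42% and 17.9%, and Treg-like cells, where Foxp3 was read in 52.1% and 49.5%, made up 2.31% and 5.95% of it. Macrophages, with monocytes included, numbered 3177 and 2549, conventional dendritic cells (cDCs) 302 and 480, and B cells 280 and 895. These shares are those of a CD45+ selection.

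The receptors and CD40L were read mainly in T cells. Of all UMIs of the gene in the library, T cells held 88.8% of Cd40lg in Ctrl and 70.7% in KD, 90.1% and 85.4% of Tnfrsf4, 86.7% and 75.9% of Tnfrsf9, 83.3% and 67.8% of Tnfrsf18, and 86.2% and 79.0% of Icos. Cd40 was read on the other side, with 72.5% of its UMIs in macrophages in Ctrl and 61.8% in KD. The ligands did not share a pattern. Macrophages held 56.5% and 53.0% of the UMIs of Tnfsf9 and 51.2% and 35.3% of those of Icosl. Tnfsf4 was read mainly in T cells themselves, with 89.0% of its UMIs there in Ctrl and 76.8% in KD.

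Over all filtered cells, Tnfrsf9 was at 206 CPM in Ctrl and 91.7 CPM in KD, a log2 ratio of -1.17 (-1.22 to -1.13). Tnfsf4 was at 23.1 and 9.71 CPM, a ratio of -1.25 (-1.39 to -1.11). Tnfrsf4, Tnfrsf18 and Icos were lower too, with ratios of -0.57, -0.51 and -0.40, and Tnfsf9 was at -0.04. Cd40 was at 43.6 and 25.1 CPM. Cd40lg was higher, at 2.09 CPM in Ctrl and 7.29 CPM in KD, and so was Icosl, at 7.56 and 12.9 CPM. T cells were a smaller part of KD, so the levels within classes are given next.

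Cd40lg, the signal of helper T cells to antigen-presenting cells, showed the sharpest division between T cell subsets. In CD4+ T-like cells it was at 163 CPM in Ctrl (130 to 201, from 87 UMIs) and 166 CPM in KD (145 to 188, from 237 UMIs). Log2 ratios are given as KD over Ctrl, and here the ratio was 0.02 (-0.34 to 0.40), so that the level in these helper-like cells did not differ beyond counting error. In Treg-like cells Cd40lg had 1 UMI in Ctrl and 3 in KD. In the sum of all T cells it was at 4.91 CPM in Ctrl and 26.7 CPM in KD, a log2 ratio of 2.44 (2.13 to 2.76). Cd40lg was the only 1 of the 9 members at least 2-fold higher in KD in all T cells, where 4.86% of the 15116 genes with at least 20 UMIs were that much higher, and no member was at least 2-fold lower, against 2.83% of genes.

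The same was seen in shares of cells. With each cell thinned to 1500 UMIs, Cd40lg was read in 27 of 129 CD4+ T-like cells of Ctrl, or 20.9% (14.3% to 29.0%), and in 74 of 325 of KD, or 22.8% (18.3% to 27.7%). Unthinned shares were 34.6% and 39.6%, and the unthinned cells had medians of 3391.5 and 3985 UMIs. B cells, which should lack Cd40lg, had it in 0 of 249 and 0 of 821 thinned cells. The upper limits of these shares were 1.47% and 0.448%, and 3 cells, the bound used for a count of 0, would be 1.20% and 0.365%. Without thinning, 0 and 0.223% of B cells had it, at medians of 2617 and 2598 UMIs.

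Cd40lg was higher in KD in CD8+ T-like cells, at 0.874 CPM in Ctrl (19 UMIs) and 5.56 CPM in KD (44 UMIs), with a log2 ratio of 2.67 (1.86 to 3.53). Most of the KD cells behind this value did not carry CD8 transcripts. Of the 27 KD cells with a Cd40lg UMI in these clusters, 17 held Cd4 without Cd8a or Cd8b1, and 2 held Cd8a or Cd8b1 without Cd4. In Ctrl, 5 of 13 such cells held only Cd4 and 4 only CD8 transcripts. The clusters contained 50 cells with only Cd4 in KD and 21 in Ctrl. When T cells were instead assigned by the UMIs of each cell, cells with CD8 transcripts and no Cd4 had 9 Cd40lg UMIs in Ctrl and 5 in KD, with a log2 ratio of 0.53 (-1.39 to 2.27). The largest difference under this assignment was in T cells with neither or both of CD4 and CD8 transcripts, which had 48 and 155 UMIs, or 21.2 and 63.9 CPM, a ratio of 1.59 (1.12 to 2.09). In cells assigned to CD4+ in this way, without Foxp3, Cd40lg was at 82.1 and 109 CPM, a log2 ratio of 0.41 (0.01 to 0.82).

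A further source of Cd40lg was found in the NK-like cluster, with 4 UMIs in Ctrl and 85 in KD, or 5.66 and 63.1 CPM. The 85 UMIs came from 32 of the 333 KD cells. Of these 32 cells, 28 held Cd3g, a chain of the T cell receptor complex, 21 held Trac, its alpha chain constant region, 13 held Klrb1c (NK1.1) and 0 held the NK receptor gene Ncr1. Neither Cd4 nor CD8 transcripts were read in 25 of them. Cd3e was read in 26.4% of NK-like cells in KD and in 5.73% in Ctrl. This cluster thus held more cells with T cell transcripts in KD, and their part in its Cd40lg level was not tested. IL-17 T-like cells, with 22 cells in Ctrl and 14 in KD, had 4 and 13 Cd40lg UMIs.

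Tnfrsf4 encodes OX40, which is induced by activation in CD4+ cells and is constitutive in regulatory T cells of the mouse. Its level was highest in Treg-like cells, at 907 CPM in Ctrl (828 to 991) and 845 CPM in KD (777 to 918). CD4+ T-like cells followed with 503 and 450 CPM. CD8+ exhausted-like cells had 142 and 150 CPM, cycling-like cells 115 and 106 CPM, and effector-like cells 49.3 and 40.3 CPM. The order of these 5 classes was the same in both libraries. The log2 ratio in Treg-like cells was -0.10 (-0.28 to 0.08), in CD4+ T-like cells -0.16 (-0.37 to 0.05) and in CD8+ T-like cells -0.16 (-0.27 to -0.05). In all T cells, by contrast, it was 0.32 (0.24 to 0.40), with 140 CPM in Ctrl and 175 CPM in KD. The pooled level was thus higher in KD while none of these 3 subset levels was. Among thinned cells, 64.3% of the Treg-like class in Ctrl (45 of 70) and 68.2% in KD (75 of 110) had a Tnfrsf4 UMI, against 94.4% and 91.0% without thinning. Macrophages, which should lack the gene, had it in 0.129% and 0.119% of thinned and in 0.724% and 0.314% of unthinned cells. Their median depths were 6259 and 7772 UMIs, and those of Treg-like cells 5832 and 4422. Not all classes outside T cells were this low, and mature DC-like cells had Tnfrsf4 at 66.2 and 85.5 CPM, from 11 and 21 UMIs.

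Tnfrsf18 encodes GITR, the neighbor of OX40 in the genome, and followed the same order. It was at 573 CPM in Ctrl and 528 CPM in KD in Treg-like cells, at 376 and 300 CPM in CD4+ T-like cells, and at 124 and 116 CPM in CD8+ T-like cells. The log2 ratio was -0.12 (-0.34 to 0.11) in Treg-like, -0.33 (-0.57 to -0.08) in CD4+ T-like and -0.09 (-0.20 to 0.02) in CD8+ T-like cells. In all T cells it was 0.15 (0.07 to 0.24). Outside T cells, NK-like cells had 97.7 and 130 CPM, and mature DC-like cells 48.2 and 106 CPM, from 8 and 26 UMIs. Both receptors were often read in the same cell. Of thinned Treg-like cells with a Tnfrsf4 UMI, 66.7% in Ctrl (30 of 45) and 62.7% in KD (47 of 75) also had a Tnfrsf18 UMI, against 10 of 25 and 17 of 35 of those without. In CD8+ T-like cells the shares were 20.5% against 14.7% in Ctrl and 24.7% against 11.9% in KD. Cells also differ in state within a class, and such counts are sparse.

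The start regions of these TNF-receptor genes are shown because Tnfrsf4 and Tnfrsf18 lie side by side and had like levels across the classes, and because the second listed start of Tnfrsf9, on the same chromosome, was chosen for its matches to both motifs searched. RefSeq start regions, from 250 bases before to 50 bases after a start, were found for 4 of the 9 members (Tnfrsf4, Tnfrsf9, Tnfrsf18 and Icosl) in build GRCm38.p6, which is not the build of the count tables. Capitals mark matches on either strand to TGANTCA (the AP-1 motif) or GGGNNNNNCC (a loose NF-kappaB motif), with N for any base. Tnfrsf4 is shown at chr4:156013445-156013744, Tnfrsf18 at chr4:156026072-156026371, and the second of the 2 listed starts of Tnfrsf9 at chr4:150927749-150928048, all on the plus strand.
Tnfrsf4: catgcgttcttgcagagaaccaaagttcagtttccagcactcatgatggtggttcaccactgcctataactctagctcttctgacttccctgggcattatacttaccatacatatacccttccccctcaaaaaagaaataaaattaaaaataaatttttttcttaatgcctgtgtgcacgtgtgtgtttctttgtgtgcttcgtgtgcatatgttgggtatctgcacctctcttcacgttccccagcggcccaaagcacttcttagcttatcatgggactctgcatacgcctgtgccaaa
Tnfrsf18: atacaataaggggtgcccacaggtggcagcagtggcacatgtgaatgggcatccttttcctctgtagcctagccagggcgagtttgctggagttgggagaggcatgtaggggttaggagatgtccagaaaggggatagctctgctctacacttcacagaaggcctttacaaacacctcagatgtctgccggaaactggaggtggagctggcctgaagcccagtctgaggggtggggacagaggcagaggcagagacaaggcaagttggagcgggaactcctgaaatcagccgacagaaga
Tnfrsf9: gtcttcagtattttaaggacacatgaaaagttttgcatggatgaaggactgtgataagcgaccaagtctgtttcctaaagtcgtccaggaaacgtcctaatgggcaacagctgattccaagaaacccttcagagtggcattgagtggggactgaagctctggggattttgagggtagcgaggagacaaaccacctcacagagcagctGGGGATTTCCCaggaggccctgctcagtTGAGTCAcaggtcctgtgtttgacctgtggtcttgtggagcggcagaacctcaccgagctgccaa
In the Tnfrsf9 region, TGAGTCA begins 15 bases before the start, and the overlapping GGGGATTTCC and GGGATTTCCC begin 43 and 42 bases before it. Neither motif occurs in these windows of Tnfrsf4 and Tnfrsf18, nor in that of the first listed start of Tnfrsf9, and the region of Icosl holds 2 matches to the second motif. Of all 32851 start regions in the table, 7.81% hold the first motif and 50.8% the second, so the second is common, and a match is a description of the letters and not a binding site.

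Tnfrsf9 encodes 4-1BB, a receptor of activated CD8+ cells and regulatory T cells. It was at 1036 CPM in Ctrl (951 to 1126) and 976 CPM in KD (903 to 1055) in Treg-like cells, and the log2 ratio was -0.09 (-0.25 to 0.08). Exhausted-like CD8+ cells followed, with 570 and 587 CPM and a log2 ratio of 0.04 (-0.04 to 0.13). In cycling-like cells the level was lower in KD, with 476 and 369 CPM and a log2 ratio of -0.37 (-0.46 to -0.28), and in effector-like cells it was 283 and 247 CPM, with -0.20 (-0.37 to -0.02). CD4+ T-like cells had 223 and 188 CPM, a ratio of -0.24 (-0.56 to 0.08). Over all CD8+ T-like cells the ratio was -0.26 (-0.32 to -0.20), and over all T cells -0.40 (-0.45 to -0.35), from 474 to 360 CPM. A Tnfrsf9 UMI was read in 42.2% of thinned CD8+ T-like cells of Ctrl (40.2% to 44.1%) against 33.6% of those of KD (30.6% to 36.7%), and in 78.9% and 67.5% without thinning. Granulocytes had it in 1.22% and 0.833% of thinned and in 1.54% and 1.17% of unthinned cells, at median depths of 2149 and 2812 UMIs, against 7473 and 7038 in CD8+ T-like cells. Mature DC-like cells had Tnfrsf9 at 60.2 and 97.7 CPM, from 10 and 24 UMIs. Of thinned CD8+ T-like cells with Tnfrsf9, 17.2% in Ctrl also had Tnfrsf18, against 14.1% of those without, and in KD the values were 12.8% and 13.2%.

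Icos, the inducible member of the CD28 family, was highest in IL-17 T-like cells, at 671 CPM in Ctrl (495 to 889) and 884 CPM in KD (664 to 1153). Treg-like cells had 468 and 546 CPM and CD4+ T-like cells 444 and 380 CPM. In CD8+ cells the direction differed by subset. In effector-like cells Icos was at 228 CPM in Ctrl and 142 CPM in KD, a log2 ratio of -0.68 (-0.90 to -0.47), while in exhausted-like cells it was at 112 and 135 CPM, a ratio of 0.28 (0.10 to 0.46), and in cycling-like cells at 76.3 and 101 CPM, a ratio of 0.41 (0.22 to 0.59). The difference between these subsets was not tested. In all CD8+ T-like cells the ratio was 0.12 (0.01 to 0.23), and in all T cells 0.44 (0.36 to 0.52). NK-like cells had 58.0 and 140 CPM, beside the higher share of cells with Cd3e in KD given above.

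**Figure D1:**
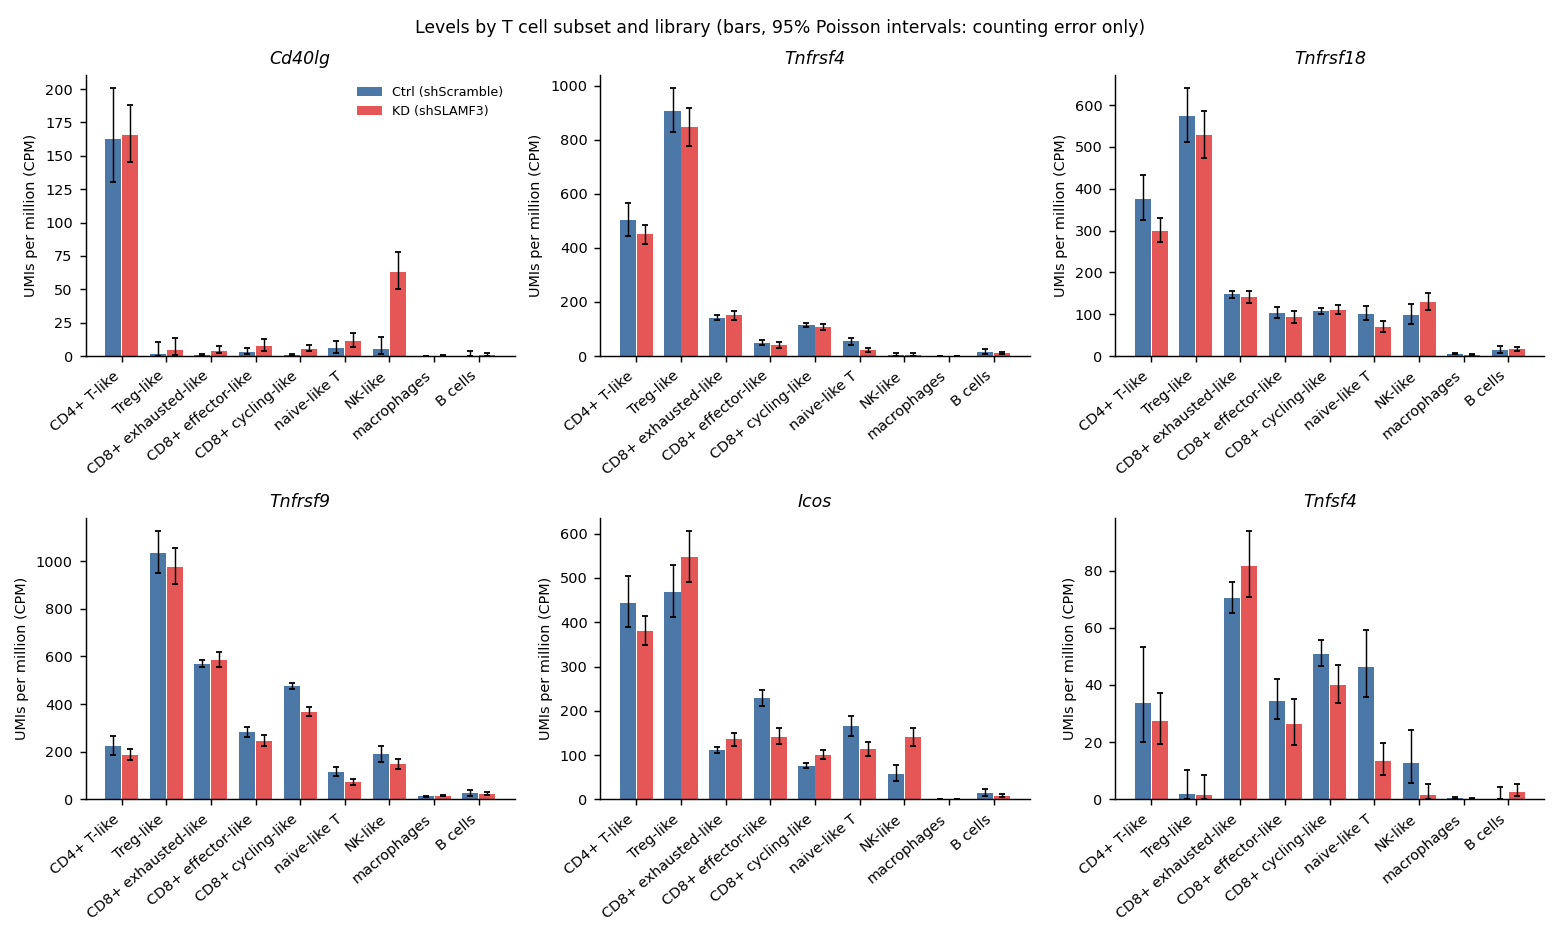
Levels of 5 T cell genes and of Tnfsf4 in CPM (vertical axes, each from 0) by class of cells, with bars in blue for Ctrl and red for KD and black lines for 95% Poisson intervals. Cd40lg stands at 163 and 166 CPM in CD4+ T-like cells and at 63.1 CPM in NK-like cells of KD, and Tnfrsf4, Tnfrsf9 and Tnfrsf18 are highest in Treg-like cells of both libraries. Of the 32 NK-like cells of KD with a Cd40lg UMI, 28 held the T cell gene Cd3g and 0 held Ncr1.

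The pooled ratios and the subset ratios were set side by side by recomputing the KD level of all T cells with the subset mix of Ctrl. By UMIs, CD4+ T-like cells took 2.20% of the T cell total in Ctrl and 11.99% in KD, Treg-like cells 2.20% and 5.55%, exhausted-like cells 37.9% and 20.5%, and naive-like T cells 5.70% and 15.6%. At the Ctrl mix, the KD level of Cd40lg was 9.69 CPM in place of 26.7, and its log2 ratio was 0.98 in place of 2.44. The ratio of Tnfrsf4 went from 0.32 to -0.06, that of Tnfrsf18 from 0.15 to -0.08, and that of Icos from 0.44 to 0.07. Tnfrsf9 went from -0.40 to -0.15. The mix held fixed is that of the clusters, and the CD8+ T-like clusters held 21 cells with only Cd4 in Ctrl and 50 in KD. Their part in the remaining ratio of Cd40lg was not tested. The fixed-mix ratios depend on the class assignment and on depth. With classes from the UMIs of single cells they were -0.36 for Tnfrsf4, -0.35 for Tnfrsf9, -0.18 for Tnfrsf18, 0.0082 for Icos and 0.99 for Cd40lg, and with thinned cells -0.21, -0.19, -0.29, -0.17 and 0.58.

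**Figure D2:**
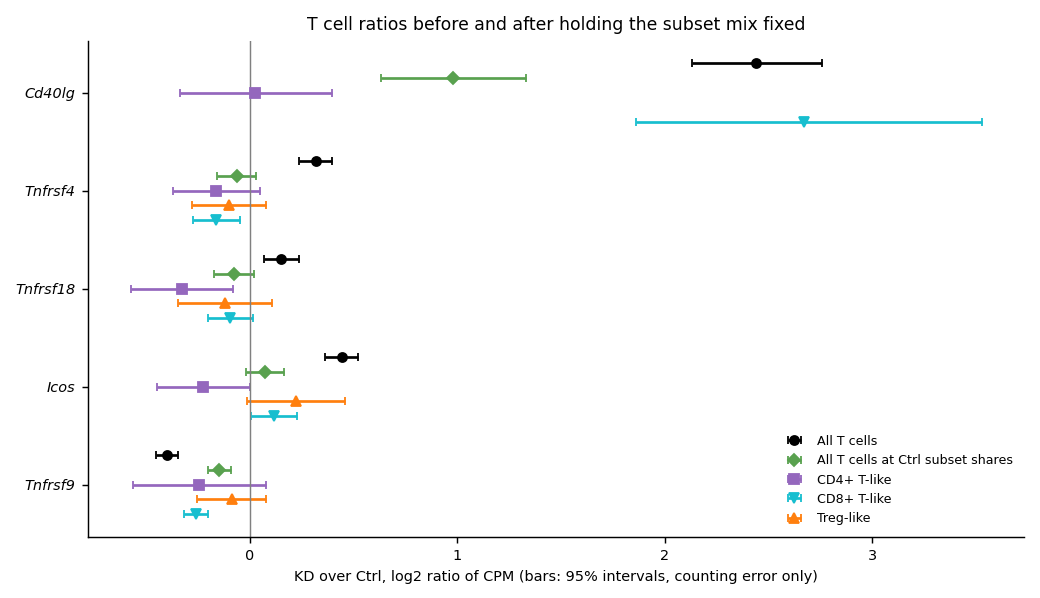
Log2 ratio of KD over Ctrl (horizontal axis, 0 marks equal levels) for 5 genes in all T cells, in all T cells at the Ctrl subset mix, and in 3 subsets, with 95% counting intervals (for the fixed mix, by a normal approximation on the log scale). Cd40lg moves from 2.44 to 0.98 at the fixed mix and lies at 0.02 in CD4+ T-like cells. The mix is that of the clusters, and some cells with only Cd4 were in the CD8+ T-like clusters. Treg-like cells have no point for Cd40lg, which had under 20 UMIs there.

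Tnfsf4 encodes OX40L, best known from antigen-presenting cells, but here most of its UMIs were in CD8+ T-like cells. Exhausted-like cells had 70.3 and 81.6 CPM, cycling-like cells 51.0 and 39.9 CPM, and effector-like cells 34.5 and 26.3 CPM. Treg-like cells had 1 UMI in each library. Of the 633 Ctrl and 184 KD cells with a Tnfsf4 UMI in the CD8+ T-like clusters, 599 and 170 held Cd8a or Cd8b1 without Cd4. The thinned share with a UMI was 7.30% for Ctrl, between 6.31% and 8.39%, and 6.33% for KD, between 4.89% and 8.05%, and without thinning 25.1% and 18.7%. Macrophages had it in 0 of 3091 and 1 of 2520 thinned cells and in 0.315% and 0.196% of unthinned cells. CD4+ T-like cells had 18 and 39 UMIs, or 33.7 and 27.3 CPM. Of the dendritic cell clusters, cDC2-like cells had 5 and 13 UMIs. The mature DC-like cluster was a class of 28 Ctrl and 33 KD cells led by Fscn1 and Cacnb3, with 3 UMIs in Ctrl and 24 in KD. The levels were 18.1 CPM (3.72 to 52.8) and 97.7 CPM (62.6 to 145), and the log2 ratio was 2.43 (0.72 to 4.81). These UMIs came from few cells, 3 in Ctrl and 6 in KD, or 10.7% and 18.2% of the class, and from 1 of 24 and 4 of 32 thinned cells. In all cDCs Tnfsf4 was at 4.02 and 8.80 CPM, a ratio of 1.13 (0.06 to 2.37). It was the only 1 of 8 members with at least 20 UMIs that was at least 2-fold higher there, against 3.6% of genes, and 0 were at least 2-fold lower, against 2.14%. The ratio was under 2-fold with the stricter cell filter (0.96), with equal weight for each cell (0.997) and with thinned cells (0.07).

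Naive-like T cells, taken as 1 class of unlike sub-clusters, showed lower levels of both partners of this pair in KD. Tnfsf4 was at 46.3 CPM in Ctrl and 13.5 CPM in KD, a log2 ratio of -1.78 (-2.51 to -1.10), and Tnfrsf4 at 54.2 and 23.1 CPM, a ratio of -1.23 (-1.81 to -0.67). These were 2 of the 7 members with 20 UMIs, where 2.71% of genes were at least 2-fold lower, and none was at least 2-fold higher, against 2.06%. Tnfrsf9, Tnfrsf18 and Icos were lower there too, with ratios of -0.71 (-1.05 to -0.37), -0.53 (-0.89 to -0.18) and -0.54 (-0.82 to -0.26). Tnfsf9 had a ratio of -0.73 (-1.75 to 0.26) and Cd40lg one of 0.97 (-0.27 to 2.35). The class joined a pair of sub-clusters that differed in size between the libraries. The first, led by Lef1 and Satb1, held 234 Ctrl and 379 KD cells and had 5 and 4 Tnfsf4 UMIs. The second, led by Aff3, Tcf7 and Slamf6, held 93 and 44 cells and had 59 and 21 Tnfsf4 UMIs, or 115 and 70.4 CPM, a ratio of -0.71 (-1.50 to 0.03). It met 5 markers of the naive list, where the first met 9, and held 419 CD8 and 7 Cd4 UMIs. The part of this change in mix in the class ratios of all the genes above was not tested. For Tnfrsf4 the ratio in the second was -0.18 (-0.81 to 0.43), and in the first -0.65 (-2.31 to 1.05). Within neither sub-cluster did the interval of Tnfsf4 or Tnfrsf4 lie wholly below 0.

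Cd40, the receptor through which helper T cells activate antigen-presenting cells, was lower in macrophages of KD. It was at 88.9 CPM in Ctrl (85.1 to 92.9, from 2031 UMIs) and 44.9 CPM in KD (42.1 to 47.9, from 958 UMIs), a log2 ratio of -0.98 (-1.10 to -0.87). Among thinned macrophages, a Cd40 UMI was read in 11.2% in Ctrl, with an interval of 10.1% to 12.3%, and in 5.60% in KD, with 4.73% to 6.57%. Unthinned shares were 36.8% and 24.2%. CD8+ T-like cells, which should lack Cd40, had it in 0 of 2506 and 0 of 979 thinned cells. The upper limits of these shares were 0.147% and 0.376%, and 3 cells would be 0.120% and 0.306%. Without thinning, 0.555% and 0.509% of CD8+ T-like cells had it. At this size Cd40 fell just short of a 2-fold difference. Of the 7 members with 20 UMIs in macrophages, 1 was at least 2-fold lower, against 3.93% of genes. This was Tnfrsf4, with 23 and 8 UMIs, or 1.01 and 0.375 CPM, in a class that should lack this gene. None was at least 2-fold higher, against 3.36% of genes.

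The lower Cd40 level was read in most macrophage sub-clusters. In 5 of the 6 sub-clusters that held at least 50 cells of each library, the interval of the log2 ratio lay below 0. The monocyte-like sub-cluster led by Vcan and Chil3 had 62.1 and 15.03 CPM, a ratio of -2.05 (-2.55 to -1.57), the strongest of the 6. The sub-cluster led by the inflammatory cytokine genes Il1a, Cxcl1 and Il6 had the highest level in both libraries, 169 and 80.5 CPM, with a ratio of -1.07 (-1.32 to -0.82). Cycling macrophages had 68.4 and 33.3 CPM, those led by Ly6i and Cxcl11 100 and 63.0 CPM, and those led by Ccl8 and Mmp12 82.1 and 53.9 CPM. The exception was the sub-cluster led by Ckb and Selenom, with 55.3 and 47.9 CPM and a ratio of -0.21 (-0.69 to 0.26). A sub-cluster led by Ltc4s and Pf4 was almost wholly of KD, with 387 of its 397 cells, and had 15.8 CPM there. With sub-clusters of over 90% from either library left out, the macrophage ratio was -0.82, and at the sub-cluster mix of Ctrl it was -0.81.

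**Figure D3:**
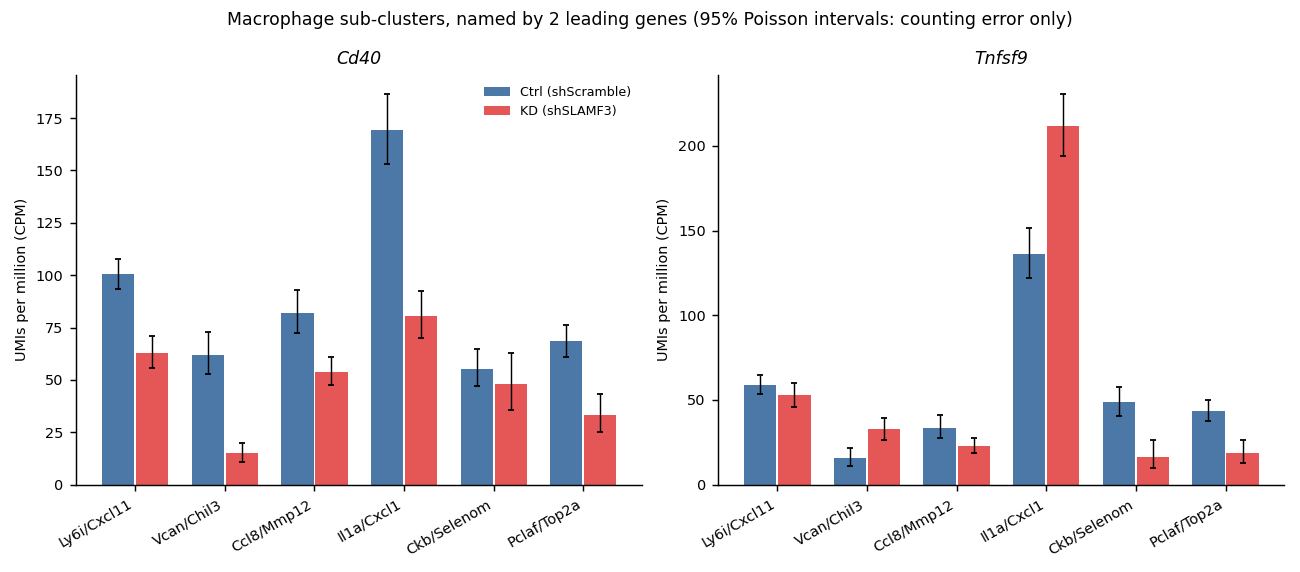
Cd40 and Tnfsf9 in CPM (vertical axes, from 0) in the 6 macrophage sub-clusters with at least 50 cells in each library, with blue bars for Ctrl, red bars for KD and black lines for 95% Poisson intervals. The Cd40 bars of KD lie below those of Ctrl in all 6, with overlapping intervals in the Ckb/Selenom sub-cluster, and stand at 169 and 80.5 CPM in the Il1a/Cxcl1 sub-cluster, while Tnfsf9 there is higher, at 136 and 212 CPM.

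In dendritic cells and B cells the Cd40 difference was smaller. In cDCs it was at 53.98 and 37.98 CPM, a log2 ratio of -0.51 (-0.86 to -0.16) that was -0.25 without doublets, and in B cells at 54.4 and 41.3 CPM, a ratio of -0.40 (-0.90 to 0.12). Among cDCs, cycling cells had 56.7 and 21.6 CPM, a ratio of -1.39 (-2.26 to -0.56). cDC2-like cells had 48.5 and 35.4 CPM and cDC1-like cells 34.1 and 24.4 CPM, and the intervals of both ratios included 0. The mature DC-like cells had the highest Cd40 levels of the dendritic cells, 144 CPM in Ctrl (92.6 to 215) and 179 CPM in KD (130 to 240), with a ratio of 0.31 (-0.44 to 1.09). In Kupffer-like cells, the resident macrophages of the liver, Cd40 was at 42.2 and 43.9 CPM, a ratio of 0.06 (-0.86 to 1.00). Granulocytes had 15 Cd40 UMIs in Ctrl and 7 in KD, and since they were 779 and 2223 cells the ratio was -3.09 (-4.62 to -1.70), at 8.18 and 0.963 CPM.

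Tnfsf9, the ligand of 4-1BB, was read mainly in myeloid cells, and T cells held 17.3% of its UMIs in Ctrl and 7.96% in KD. In CD4+ T-like cells Tnfsf9 was at 56.1 CPM in Ctrl (30 UMIs) and 28.7 CPM in KD (41 UMIs), a log2 ratio of -0.97 (-1.68 to -0.24). CD8+ T-like cells had 15.1 and 12.5 CPM. In macrophages it was at 54.9 CPM in Ctrl and 51.6 CPM in KD, a log2 ratio of -0.09 (-0.21 to 0.03). This level joined sub-clusters that differed in opposite directions. Those led by Il1a and Cxcl1 had 136 and 212 CPM, a ratio of 0.64 (0.44 to 0.84), and the monocyte-like cells 15.6 and 32.6 CPM, a ratio of 1.06 (0.51 to 1.64). Those led by Ckb and Selenom had 48.5 and 16.6 CPM, a ratio of -1.55 (-2.35 to -0.83), and cycling macrophages 43.6 and 19.0 CPM, a ratio of -1.20 (-1.78 to -0.66). Among cDCs, cDC2-like cells had 105 and 123 CPM, a ratio of 0.23 (-0.12 to 0.58), and cDC1-like cells 13.6 and 16.3 CPM, from 8 and 16 UMIs. Among thinned macrophages 6.73% in Ctrl and 5.75% in KD had a Tnfsf9 UMI, against 21.2% and 18.9% without thinning, and of B cells 1.20% and 1.71%, against 2.14% and 2.68%. Kupffer-like cells had 10 Tnfsf9 UMIs in Ctrl, from 4 of 49 cells, and 0 in KD, and the upper limit of the log2 ratio was -1.69. Of thinned macrophages with Cd40, 13.04% in Ctrl (45 of 345) and 8.51% in KD (12 of 141) also had Tnfsf9, against 5.94% and 5.59% of those without Cd40.

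Icosl, the ligand of ICOS, was higher in KD in B cells, with 24.9 CPM in Ctrl (15.6 to 37.8, from 22 UMIs) and 44.5 CPM in KD (37.0 to 53.2, from 122 UMIs), a log2 ratio of 0.84 (0.17 to 1.56). In thinned B cells 3.21% (1.40% to 6.23%) and 8.28% (6.49% to 10.4%) had a UMI, against 0.279% and 0.306% of CD8+ T-like cells. Without thinning the values were 7.50% and 12.4% in B cells and 1.47% and 0.916% in CD8+ T-like cells. In cDCs the ratio was 0.48 (0.02 to 0.95), with 24.98 and 34.7 CPM, and in macrophages 0.27 (0.02 to 0.53), with 10.9 and 13.2 CPM. At equal depth the shares did not follow, with 4.61% and 4.46% of thinned cDCs and 1.71% and 1.15% of thinned macrophages, against 16.6% and 23.3% and against 7.08% and 9.65% without thinning. cDC1-like cells had 7 and 29 UMIs, or 11.9 and 29.5 CPM, a ratio of 1.31 (0.08 to 2.74), but 3.95% and 2.94% of them had a UMI after thinning. This class joined a sub-cluster of 51 Ctrl and 95 KD cells, where the ratio was 1.03 (-0.20 to 2.46), and a shallower one of 36 and 10 cells with no Icosl UMI. Of the 4 members with 20 UMIs in cDC1-like cells, 2 were at least 2-fold higher, Icosl and Tnfrsf18, the latter with 6 and 30 UMIs, against 6.74% of genes, and none was 2-fold lower, against 3.91%. In cDC2-like cells none of 5 members was 2-fold apart, against 3.31% of genes higher and 3.16% lower. In B cells none of the 7 members was at least 2-fold higher or lower, against 3.69% and 2.5% of genes. Cd40 and Icosl UMIs were seldom in the same thinned B cell, with 0 such cells in Ctrl and 1 in KD.

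**Figure D4:**
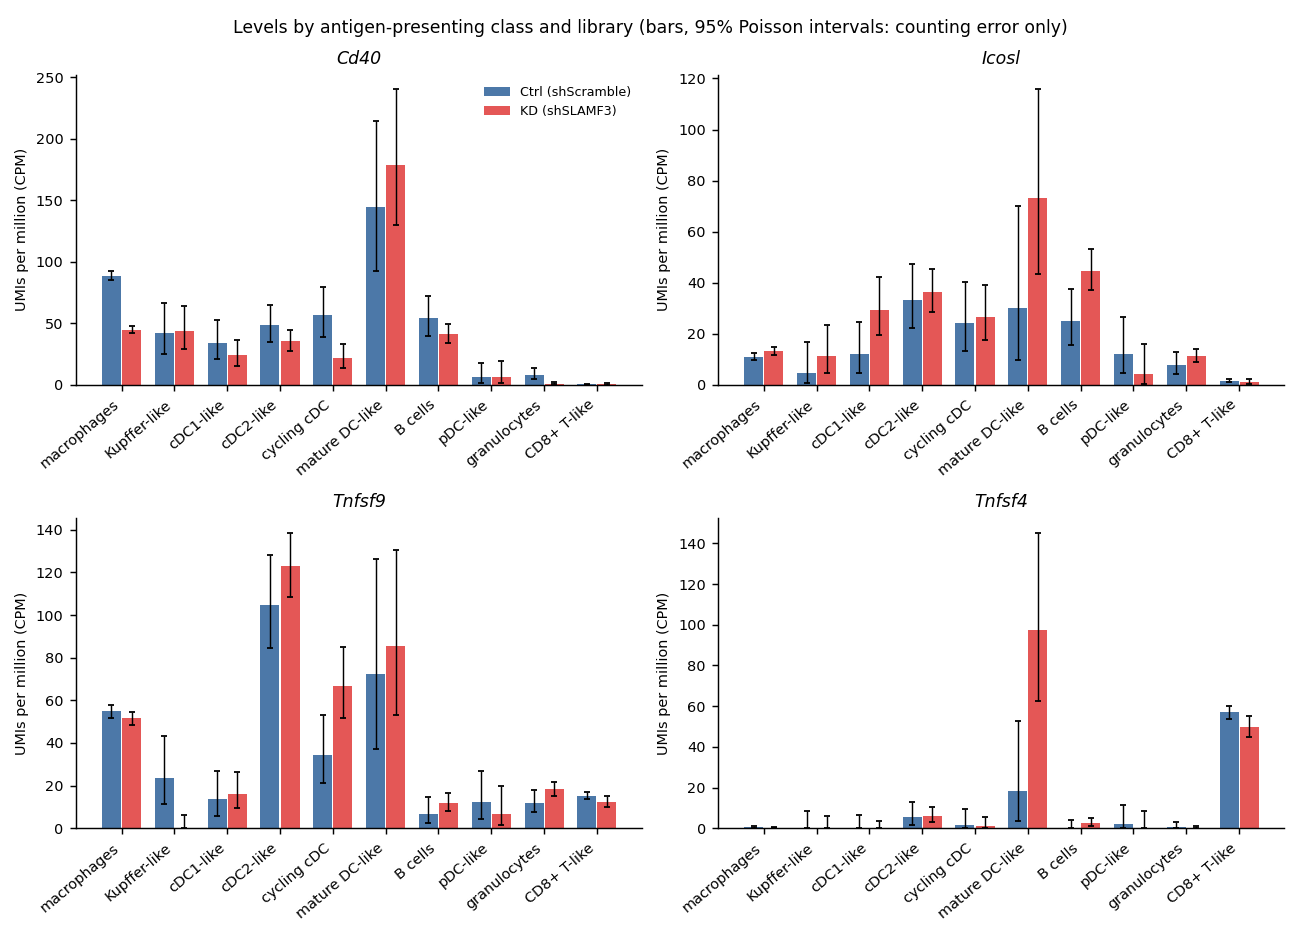
Levels of Cd40, Icosl, Tnfsf9 and Tnfsf4 in CPM (vertical axes, from 0) in antigen-presenting classes, granulocytes and CD8+ T-like cells, with blue bars for Ctrl, red bars for KD and black lines for 95% Poisson intervals. Cd40 stands at 88.9 and 44.9 CPM in macrophages, Icosl at 24.9 and 44.5 CPM in B cells, and Tnfsf4 at 18.1 and 97.7 CPM in mature DC-like cells, beside 57.0 and 49.9 CPM in CD8+ T-like cells.

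Within the T cell subsets, few members passed a 2-fold difference. In CD4+ T-like cells 0 of the 7 members with 20 UMIs were at least 2-fold higher or lower, where 3.63% and 2.35% of genes were, and in Treg-like cells 0 of 4, where 3.83% and 4.0% of genes were. In CD8+ T-like cells 1 of 8 was higher, Cd40lg, against 2.74% of genes, and 0 were lower, against 3.75%. Of the CD8+ subsets, exhausted-like cells had 0 of 6 members past 2-fold, against 1.78% of genes higher and 4.1% lower. Cd40lg was the 1 of 7 members that was higher in effector-like cells, with 9 and 13 UMIs, against 1.46% of genes, and the 1 of 7 in cycling-like cells, with 5 and 21 UMIs, against 2.63%, while 0 members were lower in either, against 2.06% and 3.65%. In effector-like cells the interval of Cd40lg included 0, with a log2 ratio of 1.26 (-0.08 to 2.67). Most KD cells with Cd40lg in the CD8+ T-like clusters held Cd4 without CD8 transcripts, as given above. The median log2 ratio of the members was -0.24 in CD4+ T-like, -0.09 in Treg-like, -0.18 in CD8+ T-like and -0.71 in naive-like T cells. For all genes with 20 UMIs it was -0.06, -0.02, -0.03 and -0.05. The naive-like class joined a pair of sub-clusters that differed in size between the libraries, as given above.

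Other genes of the same pathway were taken from 3 lists. The first held 9 further genes, which were receptors of the TNF-receptor family and ligands of such receptors. In all T cells 2 of the 7 with 20 UMIs were at least 2-fold higher in KD, against 4.86% of genes, while in CD4+ T-like cells 0 of 5 were, against 3.63%. Tnfsf8, the ligand of CD30, was at 16.5 and 68.6 CPM, a log2 ratio of 2.06 (1.88 to 2.24). It was among the leading genes of the CD4+ T-like cluster, which was a larger share of T cells in KD, and within that cluster its ratio was 0.30 (0.05 to 0.56). Tnfrsf25, the receptor DR3, was at 1.53 and 4.78 CPM, a ratio of 1.65 (1.02 to 2.28). In CD8+ T-like cells Tnfsf8 was at 5.43 and 14.4 CPM, and Tnfsf14, the ligand LIGHT, at 2.30 and 5.30 CPM. These were 2 of the 6 genes of the list with 20 UMIs there, against 2.74% of genes. The CD8+ T-like clusters held 21 cells with only Cd4 in Ctrl and 50 in KD, and their part in these values was not tested. Tnfsf18, the ligand of GITR, was scarce, with 26 UMIs in Ctrl and 41 in KD over all filtered cells, and in macrophages it had 12 and 23 UMIs, a ratio of 1.04 (-0.03 to 2.18). It was the 1 of 7 genes of the list at least 2-fold higher in macrophages, against 3.36% of genes. The second list held Cd28, Ctla4, Cd80 and Cd86. None was 2-fold apart in all T cells, CD4+ T-like, Treg-like or CD8+ T-like cells, against the shares of all genes given above. Ctla4 was lower in macrophages, with 6.83 and 3.33 CPM, Cd80 in naive-like T cells, with 45.5 and 21.5 CPM, and Cd28 in B cells, with 44.2 and 17.9 CPM and 39 and 49 UMIs. Each was 1 of 4 genes in its class, against 3.93%, 2.71% and 2.5% of genes. The T cell markers given above were also lower in macrophages and B cells of KD. The part of such T cell transcripts in the Ctla4 and Cd28 values was not tested. In macrophages Cd80 and Cd86, which bind CD28, did not follow Cd40, with 58.1 and 78.1 CPM and with 430 and 475 CPM. The third list held 11 genes of TRAF adaptors, NF-kappaB and its targets. None of them was 2-fold apart in T cells, macrophages, cDCs or B cells, against the shares of all genes given above. In cDC1-like cells 2 of 10 were lower, against 3.91% of genes, Traf6 with 27 and 20 UMIs and Nfkb2 with 16 and 12 UMIs.

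Across 32 columns, each a class of at least 50 cells in 1 library, the genes with patterns most like those of the members were listed. The genes most like Tnfrsf4 were Penk, with a Pearson r of 0.94, Ctla4, with 0.92, and Sdcbp2, with 0.91. For Tnfrsf18 they were Ctla4, Rhof and Ubash3a, with 0.91, 0.90 and 0.90, for Tnfrsf9 Sytl2, Gm17745 and Acsbg1, with 0.94, 0.92 and 0.92, and for Icos Ndfip1, Cd247 and Gimap7, with 0.93, 0.92 and 0.92. Cd40lg was most like Tnfsf11, the ligand RANKL, with 0.83, Trat1, with 0.83, and Podnl1, with 0.83. Cd40 was most like Pid1, Rasa4 and Slamf8, with 0.90, 0.89 and 0.89, Icosl most like Gm20513, Gm56896 and Plcg2, with 0.87, 0.85 and 0.83, Tnfsf4 most like Gldc, Perp and 1700019D03Rik, each with 0.88, and Tnfsf9 most like Smim3, Crtc3 and Flrt3, with 0.70, 0.68 and 0.66. Among the members, Tnfrsf4 and Icos had an r of 0.83, and Tnfrsf4 and Tnfrsf18 one of 0.82. Columns of 1 library share its depth and free RNA, so these values are descriptions.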

How the data were processed

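Immune cells of 2 pooled samples, Ctrl and KD, were profiled. The deposited values were whole-number UMI counts per gene and cell, made by the authors with Cell Ranger 7.1.0 and, per the submitters' processing notes, build GRCm39. Barcodes were dropped when they had under 200 or over 6000 genes, over 30000 UMIs, or a mitochondrial share above 10%. Cells of both libraries were clustered with Seurat 5.3.0 in R 4.3.3 on 2000 variable genes, leaving out the 33 members and listed genes, with 20 principal components at resolution 0.5. A cluster was named from at least 3 markers at a log2 fold of 0.5 in at least 10% of its cells, with its 10 leading genes not going against the name. Clusters with mixed markers stayed unnamed, and 17490 of 19999 cells were in named classes. Doublets were scored with Scrublet in scanpy 1.11.5, kept in the results and left out as an alternative (771 Ctrl and 830 KD cells).

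UMI counts were summed per class and library. Intervals are exact Poisson for levels, exact conditional binomial for ratios and Clopper-Pearson for shares (scipy 1.17.1), all at 95%, and cover counting error only. Since each group was 1 library, no test was made. A count of 0 was bounded by 3 UMIs, or by 3 cells for shares. Genes with at least 20 UMIs over both libraries entered counts past 2-fold. Shares were taken after thinning each cell to 1500 UMIs, leaving out shallower cells. All 9 members were named in the classes above, with other listed genes named when at least 2-fold apart and the 3 genes of highest Pearson r of log2(CPM + 1) for each member, among genes with at least 200 UMIs and 20 CPM in a column. Cd80 and Cd86 in macrophages, and the cells behind the Cd40lg values, were chosen after their values were seen. The members and lists were chosen with earlier results of these data known. Alternatives covered the cell filter, resolution, doublets, class assignment, scaling (TMM of edgeR 4.0.16), depth, weighting of cells, variable genes and clusters mostly of 1 library.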

Additional observations from a re-analysis of the deposited data

Results flagged for a closer look

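For Tnfrsf4, Tnfsf4, Tnfrsf9, Tnfsf9 and Tnfrsf18, the ratios of KD over Ctrl pointed in opposite directions in different classes by at least 2-fold, with counting intervals that did not include 0. The differences between classes were not tested, since each group was 1 library. The share of all genes that meet the same rule was not computed, so the pattern is not shown to be particular to these members. The log2 ratio of Tnfrsf4 was -1.23 in naive-like T cells and 1.54 in tumor or fibroblast-like cells, where it had 8 and 15 UMIs, from 4 cells in each library and from 0 thinned cells. That of Tnfsf4 was -1.78 in naive-like T cells and 2.43 in mature DC-like cells, where its UMIs came from few cells. Within neither naive-like sub-cluster did the interval of Tnfsf4 or Tnfrsf4 lie wholly below 0.

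Among macrophage sub-clusters, Tnfrsf9 had a ratio of 1.31 in those led by Ccl8 and Mmp12, with 44 and 178 UMIs, and -1.44 in those led by Ckb and Selenom, with 63 and 9 UMIs. Tnfsf9 had a ratio of 1.06 in the monocyte-like cells led by Vcan and Chil3, against -1.55 in those led by Ckb and Selenom, -1.20 in cycling macrophages and -1.09 in tumor or fibroblast-like cells. It was -2.08 in those led by Ltc4s and Pf4, which had 10 cells in Ctrl. Tnfrsf18 had a ratio of 1.58 in cDC1-like cells and -1.01 in macrophages led by Ly6i and Cxcl11, with 59 and 17 UMIs. T cell markers were also lower in macrophages of KD, and their part in this value was not tested.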

How the results depend on the processing

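No paired analysis was possible because each group was 1 library and no test was made. Of the recomputed values, 130 stayed within the counting interval of the reported value or, for shares of genes past 2-fold, within 1.5 times, and 38 did not. No called direction reversed. The cause of the moves was not tested beyond what each alternative does by construction. With cells thinned to 1500 UMIs, the log2 ratios in all T cells were 1.90 for Cd40lg, 0.44 for Tnfrsf4, -0.50 for Tnfrsf9 and 0.30 for Icos, and at the Ctrl subset mix 0.58 for Cd40lg, -0.21 for Tnfrsf4, -0.29 for Tnfrsf18 and -0.17 for Icos, where Icos changed sign from 0.07. With equal weight for each cell they were 1.85 for Cd40lg, 0.48 for Tnfrsf4, -0.48 for Tnfrsf9 and 0.26 for Icos. With classes from the UMIs of single cells, Tnfrsf9 was at -0.45 in T cells, Tnfsf4 at 2.45 in cDCs, and the fixed-mix ratios at -0.36 for Tnfrsf4, -0.35 for Tnfrsf9 and -0.18 for Tnfrsf18. Cd40 in macrophages was at -0.86 without doublets and -0.82 without sub-clusters mostly of 1 library, where Tnfsf9 was at 0.078 and so changed sign from -0.09. Of alternatives chosen after seeing the data, the Ctrl sub-cluster mix gave -0.81 for Cd40 in macrophages, and NK-like cells counted with T cells gave 0.21 for Tnfrsf4 and -0.46 for Tnfrsf9. The Tnfsf4 ratio in cDCs, from few UMIs, ranged from 0.07 to 2.45.

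Without thinning, 34.6% and 39.6% of CD4+ T-like cells had a Cd40lg UMI and 36.8% and 24.2% of macrophages a Cd40 UMI. At 1000 UMIs the shares were 16.4% and 14.8% for Cd40lg, where KD was below Ctrl, and 8.58% and 3.75% for Cd40. Of genes with at least 1 UMI, 18.2% were at least 2-fold higher and 18.7% lower in T cells, and 15.9% and 16.7% in macrophages. With at least 100 UMIs these were 2.11% and 1.13%, and 1.88% and 2.35%. TMM scaling moved all ratios of a class by at most 0.07.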
